A study of Mus musculus with 2 samples.

Results

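Among the 567 mouse microRNAs (miRNAs) on the array, 22 belonged to the miR-297, miR-466, miR-467 and miR-669 families, the repeat-derived miRNAs of the Sfmbt2 locus. They were taken by name from the scanner files, with all letters and arms kept and passenger entries (names ending in an asterisk) left out. The families contributed 4 (miR-297), 10 (miR-466), 5 (miR-467) and 3 (miR-669) entries. Each entry had 20 spots per array, spread over 2 to 4 probes, for 67 probes in all. The RNA came from microvesicles that 3T3-L1 adipocytes, a mouse preadipocyte line differentiated in culture, shed into their medium over 48 h, collected in an early window (day 2-4) or a late one (day 8-10) and pelleted by ultracentrifugation. The cells of both windows were grown in high-glucose DMEM with 10% fetal calf serum. They were all induced with 0.25 µM dexamethasone, 0.5 mM of the phosphodiesterase inhibitor 3-isobutyl-1-methylxanthine, and insulin at 10 µg/ml. With 1 array per window no difference can be checked against replicates, and no p-value is given. Errors are between spots of 1 array and are technical only.

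Sfmbt2 encodes a Polycomb-group protein and is an imprinted gene expressed from the paternal copy, chiefly in the early embryo and the placenta. In mouse, one of its introns holds a large block of miRNA genes that arose by local duplication of a short repeat-rich unit, and the block is known for its part in placental growth. Its miRNAs fall into arms rich in U and G, usually from the 5′ side of the hairpin, and arms rich in C and A from the 3′ side. RefSeq (GRCm38.p6) lists 82 miRNA genes of the 4 families, 72 of them inside Sfmbt2 and 10 elsewhere, and every one of the 72 miRNA genes inside Sfmbt2 belonged to these families. The scanner files place 21 of the 22 entries on chromosome 2, from 10388586 to 10436549, and the probes of miR-297a on chromosome 10, from 42855314 to 42855332, but the sources used here do not give the build of these positions.

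The repeat structure can be seen in the sequences that the RefSeq tables hold. None of the 22 entries matched a mature sequence there, and 1, miR-297a, matched a precursor, Mir297-1, through a gene synonym. RefSeq has 4 genes for miR-297a, 3 of them inside Sfmbt2, and Mir297-1 is the one outside. It is shown on its own line, at chr7:10958437-10958512 on the minus strand of GRCm38.p6, with capitals marking tandem repeats, that is units of 2 to 6 bases present in at least 3 consecutive copies.

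Mir297-1: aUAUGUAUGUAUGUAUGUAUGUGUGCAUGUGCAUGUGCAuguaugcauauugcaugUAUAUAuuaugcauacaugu

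The longest run of this 76-base hairpin covered 20 bases. Of the 4 hairpins of these families in the table, 3 held such a run of at least 12 bases, against 13 (1.30%) of 1001 other mouse hairpins. Relatives that are not among the 22 entries, all encoded outside Sfmbt2, show both kinds of arm, and miR-574-5p, a bright array entry from another locus, shows the same UG repeat. They are given as mature sequences from the same build with the seed, bases 2 to 8, in capitals.

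miR-466k, chr3:85467396-85467418 (+): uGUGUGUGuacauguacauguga
miR-669n, chr3:115979905-115979924 (+): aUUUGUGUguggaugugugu
miR-467h, chr9:115381898-115381919 (+): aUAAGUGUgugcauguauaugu
miR-466i-3p, chr13:17747552-17747573 (+): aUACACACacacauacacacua
miR-467f, chr11:69635419-69635439 (-): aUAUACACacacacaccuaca
miR-574-5p, chr5:64970328-64970350 (+): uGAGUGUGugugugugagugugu

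The 6 seeds all differ, 4 of them containing UGUG or GUGU and 2 containing ACAC. In the table, 9 (0.536%) of 1679 mature mouse miRNAs contained GUGUGUGU or UGUGUGUG. Of the 139 array miRNAs whose name matched a mature entry exactly, miR-574-5p was the 1 outside the families with that motif.

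A probe was called detected where more than 0.5 of its spots were flagged well above background. An entry counted as detected once 1 of its probes passed. By this rule 8 of the 22 entries (36.4%) were detected in day 2-4 vesicles and the same 8 in day 8-10 vesicles, beside 27.5% and 29.3% of all mouse miRNAs. They were miR-297a, miR-466c-5p, miR-466f-5p, miR-466h, miR-467c, miR-669a, miR-669b and miR-669c. All 3 miR-669 entries were therefore detected, against 3 of 10 for miR-466, 1 of 4 for miR-297 and 1 of 5 for miR-467. The probes of miR-669b are listed for miR-297a as well, so its detection belongs to either miRNA. The 8 were also the 8 detected on both arrays, where 25.6% of all mouse miRNAs were. No entry crossed the detection limit between the windows.

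**Figure D1:**
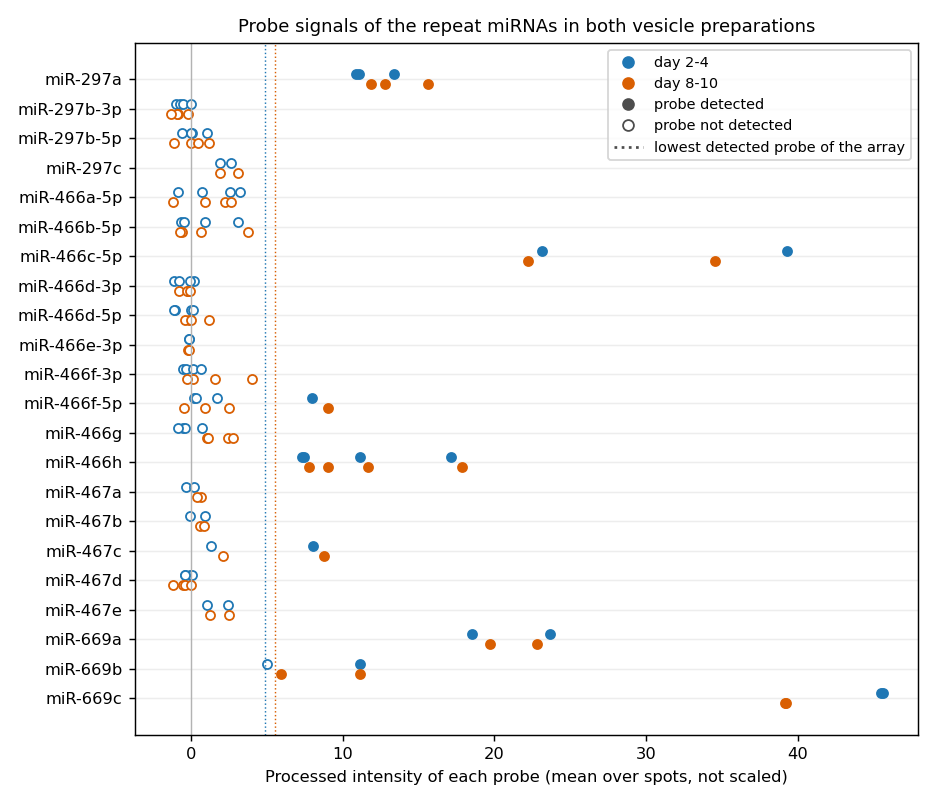
Processed intensity of each probe of the 22 repeat miRNAs (horizontal axis, mean over spots, not scaled) for day 2-4 (blue) and day 8-10 (orange), with filled points for detected probes and dotted lines at the lowest detected mouse probe of each array. The same 8 entries have a detected probe to the right of the lines in both windows, and the probes of the other 14 lie between -1.33 and 4.06.

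Detection was also counted by arm, with too few entries to show a difference between arms within these families. No entry named as a 3p arm was detected (0 of 4, miR-297b-3p, miR-466d-3p, miR-466e-3p and miR-466f-3p), while 2 of the 6 named as 5p arms were, and 6 of the 12 without an arm in the name. Among the remaining mouse miRNAs of the array, 12.1% of 58 named 3p and 24.6% of 61 named 5p were detected on both arrays. The 3 passenger entries of the families, miR-467a*, miR-467b* and miR-467e*, were not detected either, with probe means from -1.34 to 0.299, beside 5.41% of 111 other passenger entries. Both arms had entries named 5p and 3p for miR-466f, where the 5p arm was detected and the 3p arm was not. The same held for miR-297b and miR-466d, where neither was detected. With their passenger entries, miR-467a, miR-467b and miR-467e were also covered on both arms, again without detection. The undetected miR-466e-3p probes are listed for the 3p arms of miR-466a, miR-466b and miR-466c too, and of their 5p arms miR-466c-5p was detected. Those of miR-297b-3p are listed for miR-297a* and miR-297c*, and miR-297a was detected. With so few entries per class these shares are a description.

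miR-669c read alike on both of its probes. Its 17-base probe gave a processed intensity of 45.5 ± 2.53 (SD, n = 10 spots) at day 2-4 and 39.2 ± 2.10 (n = 9) at day 8-10. Its 18-base probe gave 45.6 ± 4.11 (n = 10) and 39.1 ± 3.16 (n = 10). Day 8-10 was the lower window for both probes before scaling, and the ranges of spots overlapped for both (41.8 to 49.5 against 36.3 to 42.9, and 39.6 to 51.4 against 34.4 to 42.7). Signals were then divided, within each array, by the 75th percentile over probes detected on both arrays. On that scale the log2 difference was -0.031 (spot SE 0.033), within 2 standard errors of 0. It was lower than that by more than 2 standard errors with the percentile over all probes (-0.54), quantile normalization (-0.53), the software's gene signal (-0.23) and no scaling (-0.22), and it was above 0 (0.025) under 1 of the 11 alternatives, normexp background correction.

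miR-669a is known for repressing MyoD in progenitor cells, and RefSeq gives it 12 precursor genes, all inside Sfmbt2, where miR-669c has 1. The 19-base probe of miR-669a gave 18.6 ± 1.53 (n = 9) at day 2-4 and 19.7 ± 1.77 (n = 10) at day 8-10, and its 20-base probe 23.7 ± 2.02 (n = 10) and 22.8 ± 1.94 (n = 10). One probe was thus slightly higher and the other slightly lower in late vesicles, and their mean was 21.1 and 21.3. The scaled log2 difference was 0.20 (spot SE 0.040), and it turned negative with the percentile taken over all probes (-0.31), with quantile normalization, and when the gene signal of the scanner software was used (-0.0051).

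miR-669b was detected on its longer probe in both windows. Its 17-base probe gave 11.2 ± 2.64 at day 2-4 and 11.2 ± 1.97 at day 8-10, with 10 spots each. Its 16-base probe gave 5.03 ± 0.982 and 5.96 ± 1.09, with 4 of 10 spots well above background at day 2-4 and 7 of 10 at day 8-10, so that probe was detected in the late window only. The scaled log2 difference was 0.30 (spot SE 0.078), and 0.20 over the 17-base probe alone. Both probes of miR-669b are listed in the files for miR-297a as well, so the value belongs to either miRNA.

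Within the miR-466 family, miR-466c-5p gave 23.2 ± 3.07 at day 2-4 and 22.2 ± 2.24 at day 8-10 on its 19-base probe. On its 20-base probe it gave 39.3 ± 3.65 and 34.5 ± 1.64, with 10 spots for each value. The late window was lower on both probes and the spot ranges overlapped on both. After scaling the log2 difference was 0.068 (spot SE 0.046), and it was negative without scaling (-0.12), with the percentile over all probes (-0.44), with quantile normalization and with the software's own signal.

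miR-466h, described as promoting apoptosis in cultured cells under nutrient depletion, was the 1 entry of the set detected on each of 4 probes. The probes of 16, 17, 18 and 19 bases gave means of 7.36, 7.49, 11.1 and 17.2 at day 2-4 and 9.04, 7.80, 11.6 and 17.8 at day 8-10. Each probe was higher in the late window by less than 2 units, and the spot SDs ran from 0.890 to 1.77 over 5 spots. The scaled log2 difference was 0.30 (spot SE 0.066), with single probes from 0.22 to 0.48.

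miR-466f-5p rested on 1 of its 4 probes, the longest, which gave 7.98 ± 1.40 at day 2-4 and 9.02 ± 1.87 at day 8-10 (n = 5 spots each). The 3 shorter probes had means from -0.422 to 2.54 over both arrays. The scaled log2 difference was 0.36, the spot SE of 0.18 being the largest among the 8 entries. Spots ran from 6.30 to 9.86 in the early and from 6.66 to 11.5 in the late vesicles, so the windows overlapped.

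miR-467c was the 1 detected entry of its family, whose relative miR-467b is known to target lipoprotein lipase. Its 19-base probe gave 8.02 ± 0.854 (n = 8) at day 2-4 and 8.78 ± 1.05 (n = 10) at day 8-10, and its 18-base probe was not detected on either array (1.33 and 2.09). The scaled log2 difference was 0.31 (spot SE 0.077). For miR-466f-5p, miR-466h, miR-467c and miR-669b alike, the sign turned with the percentile over all probes (-0.15, -0.21, -0.19 and -0.21) and with quantile normalization.

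miR-297a had 3 detected probes. The 17-base probe gave 10.9 ± 1.23 at day 2-4 and 11.9 ± 1.40 at day 8-10, the 18-base probe 11.1 ± 0.801 and 12.8 ± 2.02, and the 19-base probe 13.4 ± 1.75 and 15.6 ± 1.59, with 6 or 7 spots each. All of them were higher in the late window, with overlapping spots. The scaled log2 difference of 0.37 (spot SE 0.055) was the highest of the 8 and amounted to 1.29-fold. It was 0.18 without scaling and -0.14 with the percentile over all probes.

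**Figure D2:**
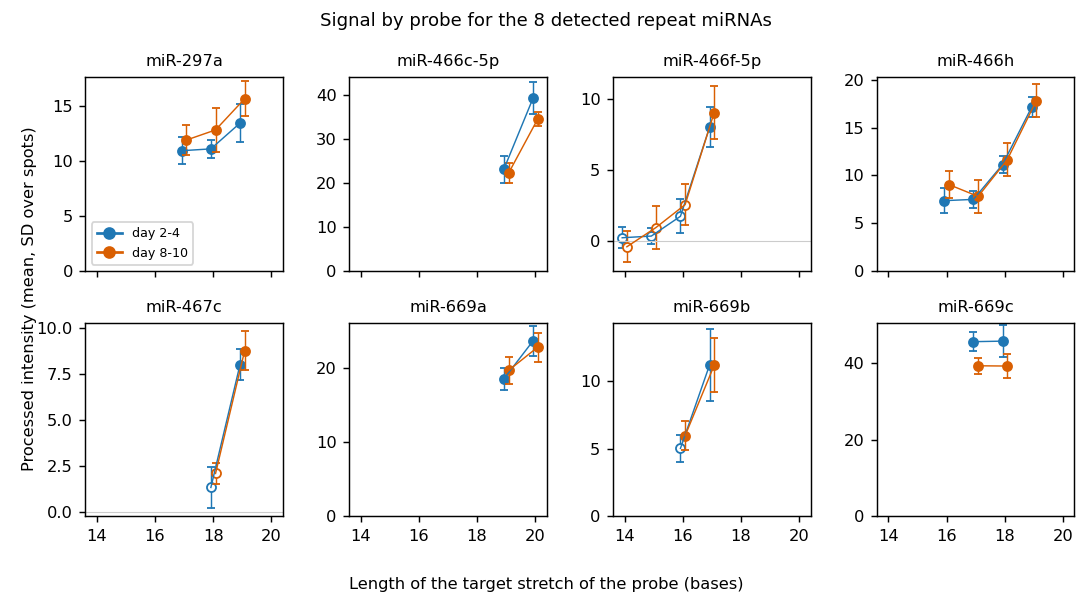
Processed intensity (vertical axis, mean with SD over spots as bars) against the length of the target stretch of each probe in bases (horizontal axis) for the 8 detected repeat miRNAs, day 2-4 in blue and day 8-10 in orange, filled where the probe was detected. The 2 windows lie close to each other in every panel, and for miR-466f-5p and miR-467c only the longest probe was detected.

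None of the 8 entries differed by 2-fold or more between the windows: 0 were higher and 0 lower at day 8-10, while 15.9% of the 145 miRNAs with detection in both windows passed 2-fold upward and 7.59% downward. Their log2 differences lay between -0.031 and 0.37, with a median of 0.30 over the 8 and of 0.20 over the 145. The scaling itself accounts for 0.19 of each difference, and with the percentile taken over all probes both medians were negative (-0.21 and -0.30). Relative to the median of all miRNAs the entries stood 0.094 higher under both of these scalings. That match was fixed in advance, since a scaling shifts all miRNAs of an array alike. The distance was 0.011 with normexp and -0.0068 with quantile normalization. The normexp offset of 50 is above the mean intensity of each entry and so narrows log2 differences. The direction of the set as a whole is therefore not settled by these arrays, and the size stayed below 2-fold under each of the 11 alternatives tried. Several of these change few or none of the 8 values, so they are not separate checks of size.

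**Figure D3:**
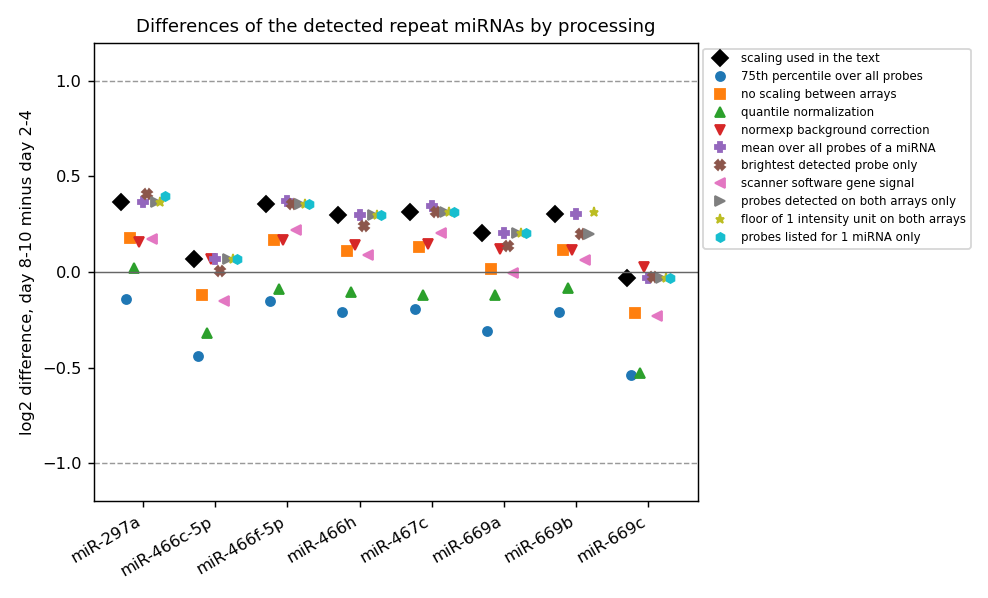
Log2 difference between day 8-10 and day 2-4 (vertical axis) for the 8 detected repeat miRNAs under the scaling used in the text (black diamonds) and under 10 alternatives. The dashed lines mark 2-fold, which no point reaches, and each entry has points on both sides of 0, the point above 0 for miR-669c coming from the normexp background correction.

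The nearness of the windows also showed in the spots. For each of the 16 probes of these entries detected on both arrays, the spots of the 2 arrays overlapped in range before scaling, and they did so after scaling too. Over all 279 mouse probes detected on both arrays, 64.5% had ranges that did not overlap. Among the 118 probes of other miRNAs with signals in the range of these 16, 50 (42.4%) overlapped. Spots per probe differ, and a range widens with their number, so the shares are a description of these 2 arrays.

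In the same signal range as the 8 entries (mean intensity 8.34 to 42.4), 59 other miRNAs had a median log2 difference of 0.28 with an SD of 0.74, where the 8 entries had an SD of 0.14. Among those 59, 8 were at least 2-fold higher and 1 at least 2-fold lower. Across the 8 entries the log2 difference was lower where the signal was higher (Pearson r = -0.936, Spearman rho = -0.667, n = 8 miRNAs), and across the 59 others r was 0.0750 and rho 0.0374. The low values were those of the brightest entries, miR-669a (0.20), miR-466c-5p (0.068) and miR-669c (-0.031). The fainter entries lay between 0.30 and 0.37 without a fall. The miRNAs share both arrays and the scaling, and miR-297a and miR-669b have probes listed for both of them, so the values are a description.

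**Figure D4:**
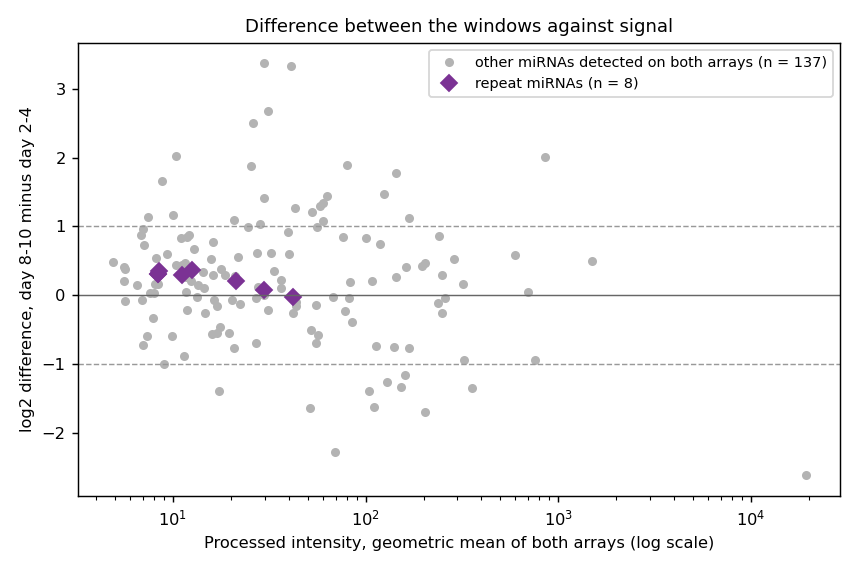
Log2 difference between the windows (vertical axis) against processed intensity (horizontal axis, log scale, geometric mean of both arrays) for the 145 miRNAs detected on both arrays, with the 8 repeat miRNAs as purple diamonds and 2-fold as dashed lines. The repeat miRNAs lie between 0.37 and -0.031, with the lowest values at the highest signals, inside a much wider spread of other miRNAs.

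miR-574-5p, the bright UG-repeat entry, gave a mean intensity of 242 at day 2-4 and 258 at day 8-10. Its scaled log2 difference of 0.29 (spot SE 0.035) lay among those of the repeat miRNAs. That value was also close to the median of 0.28 over the 59 other miRNAs in the signal range of the 8 entries. miR-574-5p is a neighbour of none of the repeat miRNAs in the genome, being encoded on chromosome 5.

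The probes of these families are listed for more than 1 miRNA more often than those of the array at large. According to the files, 13 of the 67 probes (19.4%) are listed for more than 1 miRNA, against 11 of 1605 probes (0.685%) of the other mouse entries. The 13 belong to 5 entries. All 4 probes of miR-466a-5p are listed for miR-466e-5p too, all 4 of miR-297b-3p for miR-297a* and miR-297c*, both of miR-466e-3p for miR-466a-3p, miR-466b-3p, miR-466b-3-3p and miR-466c-3p, both of miR-669b for miR-297a, and the shortest of miR-297a for miR-669b. The 17-base probe of miR-297a and the 17-base probe of miR-669b, each listed for both miRNAs, gave 10.9 and 11.2 at day 2-4 and 11.9 and 11.2 at day 8-10. With miR-669b left out, the median over the remaining 7 entries was 0.30. Whether relatives that are not listed also bind these probes was not tested.

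Signal and detection were also set beside probe length, and whether length itself was the cause was not tested. Across entries, the 20- and 21-base probes of miR-297c were undetected in both windows and the 16-base probe of miR-466h was detected in both. The probes of each entry share one end of their target and grow by 1 base at a time, from 13 to 21 bases over the set. At day 2-4 the longest probe exceeded the shortest for each of the 8 detected entries, and at day 8-10 for 7 of them, miR-669c being the exception. Over the other mouse miRNAs detected on both arrays this held for 94.0% and 95.5%. Between the longest and the shortest probe, the longest alone passed detection for 3 entries at day 2-4 (miR-669b, miR-467c and miR-466f-5p) and for 2 at day 8-10, and the shortest alone for none. Since a probe signal is not an amount, the 8 miRNAs were not ranked by level.

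The 14 undetected entries were miR-297b-3p, miR-297b-5p, miR-297c, miR-466a-5p, miR-466b-5p, miR-466d-3p, miR-466d-5p, miR-466e-3p, miR-466f-3p, miR-466g, miR-467a, miR-467b, miR-467d and miR-467e. Their 46 probes had means between -1.12 and 3.21 at day 2-4 (median -0.031) and between -1.33 and 4.06 at day 8-10 (median 0.091). The lowest detected mouse probe of each array stood at 4.86 and 5.55, and the negative control spots had an SD of 0.983 and 1.02. Of the spots kept for these entries, 0 of 275 were well above background at day 2-4 and 1 of 273 at day 8-10. A miRNA under the limit is not shown to be absent from the vesicles. Detected and undetected entries both included some with many precursor genes in RefSeq and some with 1. Among the detected, miR-669a has 12, miR-297a and miR-466f have 4 each, miR-466c has 3, and miR-466h, miR-467c, miR-669b and miR-669c have 1 each. Among the undetected, miR-467a has 10, miR-466b has 8, and most others have 1.

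For the arrays as a whole, 156 mouse miRNAs were detected at day 2-4 and 166 at day 8-10, and no mouse spot was saturated. Preparation, hybridisation and window cannot be told apart, since each window had its own single preparation. The 6 adipocyte-linked miRNAs listed (miR-143, miR-103, miR-107, miR-378, miR-148a and miR-30c) were all detected in both windows. Their median log2 difference was 1.40 and their summed intensity 273 and 718. They were chosen with earlier results of these data known, so these values are no check of the source. Beside miR-148a (1.90), miR-148b stood at 0.83 and miR-152 at 0.59. Beside miR-30c (1.03), relatives without an asterisk ran from -0.097 (miR-30d) to 1.09 (miR-30e). Of the miRNAs abundant in blood cells (miR-451, miR-486, miR-144 and miR-223), 3 of 4 were detected at day 2-4 and 4 of 4 at day 8-10, with a summed intensity of 756 and 688, and none of 3 muscle miRNAs was detected (2.89 and 3.75). Of 5 miRNAs of the early embryo, miR-290-5p and miR-294 were detected in both windows (summed intensity of the list 25.9 and 20.8). Their log2 differences were -0.55 and 0.41. The listed miR-291a-3p, miR-292-3p and miR-295 were not detected. miR-292-5p, which was not on the list, was detected on both arrays with a log2 difference of -0.60. RNA of the serum, and a change in the number of vesicles against a change in RNA per vesicle, cannot be told apart from these values.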

How the data were processed

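Vesicle RNA was prepared with Trizol, and 100 ng per sample was treated with phosphatase, labelled with Cy3 and hybridised to Agilent arrays, per the labels' protocols. Spot intensities (linear scale) were deposited as Agilent Feature Extraction 9.5.3.1 wrote them, with a fitted background surface subtracted and no normalization between arrays, per the file headers. Other deposited columns are raw and background intensities, a gene signal and flags. The series value table held the same intensities for 24986 of 24986 spots, and 0 of its columns belonged to other samples.

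Control spots and outlier spots (237 and 249 mouse spots) were left out. Signals were divided by their array's 75th percentile, taken over 279 probes that passed detection on both arrays (108 and 95.2), floored at its lowest detected probe (4.86 and 5.55), log2 transformed and averaged over spots, then over the probes detected on at least 1 array. A call needed detection on both arrays, a 2-fold difference and more than 2 spot standard errors. No test was possible with 1 array per window, and the number of arrays limits the precision. Sequences and gene names are from RefSeq (GRCm38.p6). The calculation was tested on simulated data (Python 3.11.15, numpy 2.4.6, pandas 2.3.3), and normexp used limma 3.58.1 with an offset of 50. Both simulated arrays were built from the day 2-4 array, and the planted changes were above 2-fold. The simulation therefore does not bear on the scaling between arrays or on the size of smaller changes. The members and lists were chosen with earlier results of these data known. Every detected entry was named with its values, and the others by family and range.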

Additional observations from a re-analysis of the deposited data

How the results depend on the processing

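No paired analysis was possible because each window had 1 array. No entry reached 2-fold in either direction under any of the 11 alternatives, though several leave most entries unchanged by construction and the normexp offset narrows differences. The median log2 difference over the 8 entries (0.30) was -0.21 with the 75th percentile over all probes, 0.11 without scaling, -0.11 with quantile normalization, 0.13 with normexp background correction and 0.076 using the gene signal of the scanner software. It moved by less than the spread between entries (SD 0.14) under the other 6. Of 86 values of single entries under alternatives, 53 moved by less than 2 spot standard errors and 33 by more. All 33 fell under the alternatives whose medians are given above. Many of the 53 equalled the main value exactly, because the alternative did not touch that entry, so the 53 are no measure of stability. Detection at day 2-4 covered 5 entries when 2 probes were required, and 13 at day 2-4 and 14 at day 8-10 with spots that were only positive and significant, a rule that passed 254 and 267 of all 567 mouse miRNAs. Requiring 2 probes gave 6 at day 8-10, and the other detection rules gave 8 to 10 entries. The floor of 1 intensity unit, the probes detected on both arrays, the probes listed for 1 miRNA and the omission of miR-669b were chosen after seeing the data. Keeping 1 entry per shared seed was not run, since mature sequences of the entries were not used here. Signal over background limits the faintest entries: the lowest detected probe stood at 4.86 and 5.55, and miR-669b, miR-467c and miR-466f-5p averaged below 10 in both windows.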

Other observations

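A few of the 14 undetected repeat miRNAs read or were flagged differently in the 2 windows. The 4 probes of miR-466g, at -0.844 to 0.765 at day 2-4, gave 1.03 to 2.75 at day 8-10, and the entry was positive and significant at day 8-10 but not at day 2-4. By the same rule miR-297b-5p passed at day 2-4 and not at day 8-10, although its mean over probes was 0.128 and 0.127. The mean over probes of miR-467d was lower at day 8-10 (-0.180 and -0.521). miR-466f-3p, the partner arm of the detected miR-466f-5p, had its highest probe at 0.660 in early and at 4.06 in late vesicles. The scanner software's own flag counted miR-466f-3p and miR-466b-5p as detected at day 8-10 and neither at day 2-4, which brought its count to 10 entries against 8. The highest probe of miR-466b-5p went from 3.11 to 3.77 while the lowest detected probe of the array went from 4.86 to 5.55, so it came no closer to that limit. These entries were singled out after their values were seen, and none of them passed the detection rule of the text on either array.

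The highest single reading of any repeat miRNA was a stray spot. On the day 8-10 array 1 spot of the shortest probe of miR-466a-5p read 208, while the other 4 spots of that probe lay between -2.07 and -0.168 and the 5 spots of the day 2-4 array between -2.27 and 1.06. The software marked this spot as an outlier, and the entry was undetected with outlier spots kept as well.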
